A study of Mus musculus with 9 samples.

Results

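MicroRNA silencing depends on a short chain of proteins, and the transcripts of 6 of them (Dicer1, Ago1, Ago2, Tnrc6a, Tnrc6c and Mov10) were followed in RNA recovered with Argonaute 2 (Ago2) from mouse amygdala. They were chosen by gene name, with earlier results of these data known. Ago1 and Ago2 were listed under their older names Eif2c1 and Eif2c2. The 6 genes took up 7 rows of a table of 11772 rows for 9802 genes, because Ago2 had 2 rows. The samples were 9 arrays from male C57BL/6J mice, 10 weeks old when the stress protocol was applied, of which 3 were labelled control (no social defeat), 3 susceptible and 3 resilient. In chronic social defeat a mouse meets an aggressive mouse again and again, and this had ended 8 days before the amygdala was taken. The sources used here do not say by which criterion a mouse was called susceptible or resilient. No sample label gives a transgene or drug, and all 3 groups went through the same Ago2 immunoprecipitation, so no array is of total amygdala RNA or of a control precipitation. Since the labels leave unstated whether an array stands for 1 animal, each p-value measures the spread between these arrays only, and part of that may be technical.

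Dicer cuts the hairpin precursor of a microRNA into a short duplex, and an Argonaute protein keeps one strand of it as a guide to complementary messenger RNAs. Proteins of the Tnrc6 family, also called GW182 proteins, bind Argonaute and bring in the deadenylase complexes that shorten the poly(A) tail of the target, after which the target is decapped and degraded or is translated less. Mov10 is an RNA helicase that associates with Argonaute complexes and is found near synapses in neurons.

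Every value here is a log2 RMA signal, so a difference of 1 is a doubling, and the size of a signal is compared between arrays and not between genes. A signal holds how much of a transcript was in the tissue, how much of it was on Ago2 and how much was carried along, and these cannot be told apart. In tissue samples, fewer cells of a type and less RNA per cell cannot be told apart either. The table had been selected on the outcome. For every gene in it, at least 1 row had a p of at most 0.287 in an F test over the 3 groups. A gene listed here thus had to differ somewhat between groups in at least 1 row. Further rows of a gene did not have to, and 974 rows were above that p. Counts of members are therefore read beside the same counts over all 11772 rows. A row was called at an adjusted p under 0.05 by limma, with Benjamini-Hochberg adjustment over all rows of a comparison.

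The 3 members with the largest differences between defeated mice (susceptible and resilient together) and controls were Mov10, Tnrc6c and Dicer1, and their promoters are shown, a choice made after the values were seen. Each sequence runs 5′ to 3′ from 250 bases before to 50 bases after the RefSeq transcription start (GRCm38.p6), in lower case, with matches to the motifs below in capitals. Tnrc6c lies on the + strand at chr11:117654039-117654338, Dicer1 on the - strand at chr12:104751903-104752202, and the first listed start of Mov10 on the - strand at chr3:104818514-104818813.
Tnrc6c: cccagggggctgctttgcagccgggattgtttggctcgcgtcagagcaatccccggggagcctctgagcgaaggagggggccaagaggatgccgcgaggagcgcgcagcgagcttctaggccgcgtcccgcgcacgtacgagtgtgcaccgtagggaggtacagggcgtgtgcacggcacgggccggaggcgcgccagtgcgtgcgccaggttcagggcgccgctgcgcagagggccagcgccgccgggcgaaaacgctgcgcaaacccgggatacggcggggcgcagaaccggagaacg
Dicer1: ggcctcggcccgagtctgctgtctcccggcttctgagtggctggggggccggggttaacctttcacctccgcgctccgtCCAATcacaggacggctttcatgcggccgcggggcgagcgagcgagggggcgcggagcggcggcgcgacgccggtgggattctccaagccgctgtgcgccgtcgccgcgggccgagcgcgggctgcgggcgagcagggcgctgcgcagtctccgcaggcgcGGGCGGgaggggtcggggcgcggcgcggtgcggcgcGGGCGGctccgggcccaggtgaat
Mov10: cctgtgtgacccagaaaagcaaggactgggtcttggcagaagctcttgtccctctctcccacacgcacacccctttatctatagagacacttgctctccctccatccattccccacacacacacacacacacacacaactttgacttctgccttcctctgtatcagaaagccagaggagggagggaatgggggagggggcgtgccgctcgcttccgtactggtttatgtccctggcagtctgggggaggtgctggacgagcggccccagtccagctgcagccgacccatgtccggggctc
The motifs searched on both strands were the GC box GGGCGG, the CCAAT box CCAAT, the cAMP response element TGACGTCA and the glucocorticoid receptor half-site AGAACA. Of 32851 mouse promoters of the same length, 35.7% held the GC box, 37.4% the CCAAT box, 1.79% the cAMP response element and 19% the half-site. Dicer1 had 2 GC boxes and 1 CCAAT box, and these were the only matches in the 3 sequences. The letters CG stood side by side 49 times in the Dicer1 promoter, 40 times in that of Tnrc6c and 9 times in that of Mov10, against a median of 7 over all promoters. Thus 99% of promoters had fewer CG pairs than Dicer1 and 96.1% had fewer than Tnrc6c, while the figure for Mov10 was 54.2%. Promoters matched for 5 of the 6 genes, with Ago2 named only.

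All 7 member rows had a higher mean signal in defeated mice than in controls, by 0.12 to 0.25 on the log2 scale or 1.08-fold to 1.19-fold, and none of them passed the test. limma called 0 of the 7 rows in this comparison, against 0.637% of all rows (75 of 11772). At an unadjusted p under 0.05 there were 6 of 7, against 33.9% of all rows, and in 5 of 7 rows all 6 defeated arrays lay above all 3 controls, against 10.2% of all rows. The median difference was 0.17 over the members and 0.03 over the table, where 57.7% of rows were higher. Because the members were chosen with earlier results of these data known, these shares describe them and are not a test of the set. Against controls alone, susceptible mice had 0 called rows (0.841% of all rows) and resilient mice had 0 (0% of all rows). The susceptible comparison shares its control arrays with the resilient one, so their values are given side by side and not as separate support.

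**Figure D1:**
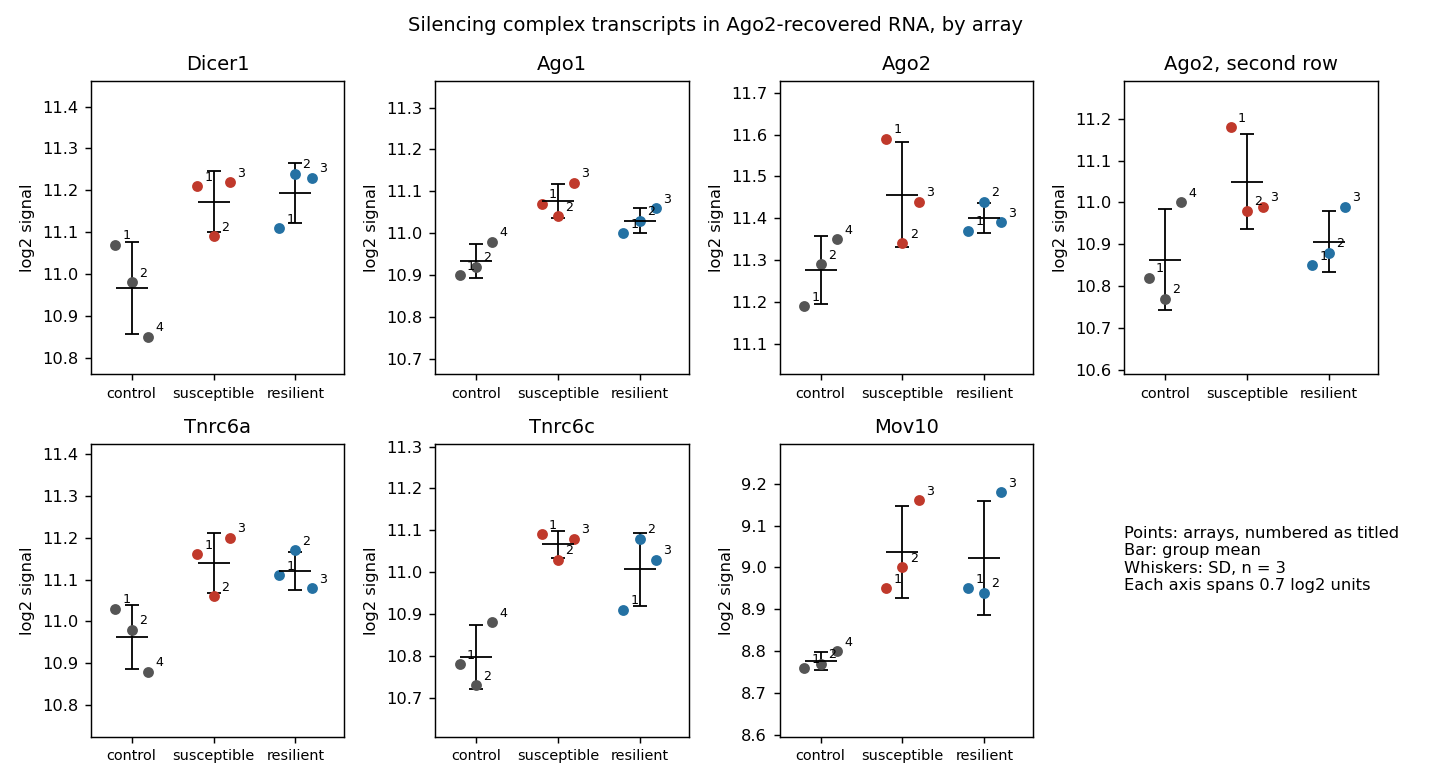
Log2 signal of each of the 7 table rows (vertical axes, each spanning 0.7 units) in the 3 control, 3 susceptible and 3 resilient arrays; points are arrays with the number from the title, bars are group means and whiskers the SD (n = 3). Controls lie below all defeated arrays for Dicer1, Ago1, Tnrc6a, Tnrc6c and Mov10, and overlap the susceptible arrays in the brighter row of Ago2 and both defeated groups in its second row.

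Dicer1 encodes the enzyme that makes mature microRNAs from their precursors. Its log2 signal was 11.07, 10.98 and 10.85 in controls 1, 2 and 4, then 11.21, 11.09 and 11.22 in susceptible 1 to 3 and 11.11, 11.24 and 11.23 in resilient 1 to 3. Control 4 was the lowest array, while control 1 came close to susceptible 2, so the gap between the groups was narrow although they did not overlap. The control, susceptible and resilient means were 10.96 ± 0.11, 11.18 ± 0.07 and 11.19 ± 0.07 (SD, n = 3 each). The difference between defeated mice and controls was 0.22 (SE 0.056, 95% interval 0.09 to 0.35; limma adjusted p = 0.0734), with 0.21 in susceptible and 0.23 in resilient mice. Without control 4 it was 0.16, and across all arrays left out in turn it ranged from 0.16 to 0.27. Dicer1 was the 1 row whose mean was not highest in susceptible mice.

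Ago1 and Ago2 encode Argonautes, of which Ago2 is the one that can itself cut a target and is the protein that was precipitated. The precipitated protein and the Ago2 transcript are different molecules, and the rows measure the transcript. Ago1 had signals of 10.896, 10.921 and 10.977 in controls, 11.071, 11.036 and 11.120 in susceptible and 11.002, 11.030 and 11.061 in resilient arrays. Each group was tight, and resilient 1 lay just above control 4, the highest control. Ago1 differed by 0.12 between defeated and control mice (SE 0.034, limma adjusted p = 0.0832), the difference being 0.14 in susceptible and 0.10 in resilient mice.

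Ago2 was measured by probe sets 10429329 and 10429327, and the brighter one is described first. It read 11.19, 11.29 and 11.35 in controls, 11.59, 11.34 and 11.44 in susceptible and 11.37, 11.44 and 11.39 in resilient arrays. Susceptible 1 was far above the other arrays and susceptible 2 lay inside the control range, so susceptible mice had the widest spread (11.46 ± 0.13, SD, n = 3). The second probe set read 10.815, 10.769 and 11.003 in controls, 11.181, 10.984 and 10.988 in susceptible and 10.854, 10.882 and 10.988 in resilient arrays. There control 4 was above 5 of the 6 defeated arrays, and susceptible 1 was again the highest. Defeated mice exceeded controls by 0.15 (SE 0.058, limma adjusted p = 0.123) in the brighter row and by 0.12 (SE 0.065, limma adjusted p = 0.195) in the second. The second value ranged from 0.07 (without control 2) to 0.19 (without control 4) with single arrays left out, and was 0.08 without susceptible 1. In resilient mice the rows gave 0.13 (95% interval -0.03 to 0.28) and 0.05 (-0.12 to 0.22), and in susceptible mice 0.18 and 0.19, or 0.12 in either row without susceptible 1.

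Tnrc6a and Tnrc6c encode 2 of the GW182 scaffolds that link Argonaute to the deadenylases. Tnrc6c read 10.78, 10.73 and 10.88 in controls, 11.09, 11.03 and 11.08 in susceptible and 10.91, 11.08 and 11.03 in resilient arrays. All defeated arrays were above all controls, with resilient 1 the nearest to them. Control, susceptible and resilient means were 10.80 ± 0.07, 11.07 ± 0.03 and 11.01 ± 0.08 (SD, n = 3 each), and resilient 1 was lower than the other 5 defeated arrays by at least the SD of its group. The difference of 0.24 (SE 0.046, 95% interval 0.13 to 0.34), or 1.18-fold, ranked 116th of 11772 rows by p in the comparison of defeated mice with controls, with a limma adjusted p of 0.0561. It was 0.27 (SE 0.054, limma adjusted p = 0.0545) in susceptible and 0.21 (SE 0.054, limma adjusted p = 0.207) in resilient mice.

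Tnrc6c stood so near the threshold that the choice of rows decided its call. When 1 row per gene was tested, its limma adjusted p was 0.0471 for defeated and 0.0443 for susceptible mice against controls, and with an allowance for the rows that selection had removed it was 0.196 and 0.190. Without susceptible 1 the adjusted p was 0.0364 and 0.0346, and without resilient 1 it was 0.0338 and 0.0455, while leaving out any one of the other 7 arrays gave values above 0.05.

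Tnrc6a read 11.03, 10.98 and 10.88 in controls, 11.16, 11.06 and 11.20 in susceptible and 11.11, 11.17 and 11.08 in resilient arrays. Control 4 was again the lowest array, and no control reached a defeated array, susceptible 2 being the nearest. Its difference was 0.17 (SE 0.045, limma adjusted p = 0.0787), with 0.18 in susceptible and 0.16 in resilient mice.

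Mov10 had the largest difference of the members, 0.25 or 1.19-fold (SE 0.063, 95% interval 0.11 to 0.40; limma adjusted p = 0.071). Its signals were 8.756, 8.771 and 8.803 in controls, 8.954, 8.998 and 9.161 in susceptible and 8.954, 8.937 and 9.177 in resilient arrays. Controls lay close together (8.78 ± 0.02, SD, n = 3), and susceptible 3 and resilient 3 were well above the other 4 defeated arrays, so the spread was wider in both defeated groups (0.11 and 0.13). The difference was 0.26 in susceptible and 0.25 in resilient mice. Without susceptible 1 the limma adjusted p was 0.0396 for all defeated mice and 0.0403 for susceptible mice against controls, and without any other single array it was above 0.05.

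In an exact permutation test of each row's difference between defeated and control arrays (two-sided), Dicer1, Ago1, Tnrc6a, Tnrc6c and Mov10 each had p = 0.0119, the smallest that 84 arrangements can give. The exact p was 0.0357 for the brighter row of Ago2 and 0.179 for the second. The table was selected with the true group labels, which favours the true arrangement, and no allowance for that was made. With 3 arrays against 3, the smallest exact p is 0.1, so no such test of a single defeated group could pass 0.05.

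Between susceptible and resilient mice limma called 0 member rows (0% of all rows), with 0 at an unadjusted p under 0.05 (10.4% of all rows). Each interval still allows a difference of 0.13 or more. For Dicer1 the difference, susceptible minus resilient, was -0.02 (95% interval -0.17 to 0.13), for Ago1 0.04 (-0.04 to 0.13) and for Tnrc6a 0.02 (-0.10 to 0.14). It was 0.06 (-0.06 to 0.18) for Tnrc6c and 0.02 (-0.15 to 0.18) for Mov10. The rows of Ago2 had 0.06 (-0.09 to 0.21) and 0.14 (-0.03 to 0.31), the second being the largest of the 7, and the groups overlapped in every row. At an unadjusted p under 0.05, 7 of 7 rows differed between susceptible and control mice (37.5% of all rows) and 5 of 7 between resilient and control mice (19.4% of all rows). All 3 susceptible arrays were above all controls in 5 of 7 rows (23.5% of all rows), and all 3 resilient arrays in 6 of 7 (15.7% of all rows). In order of group means, controls were lowest in all 7 rows, and the susceptible and resilient means, next to each other in that order, had a 95% interval of their difference that included 0 in each.

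**Figure D2:**
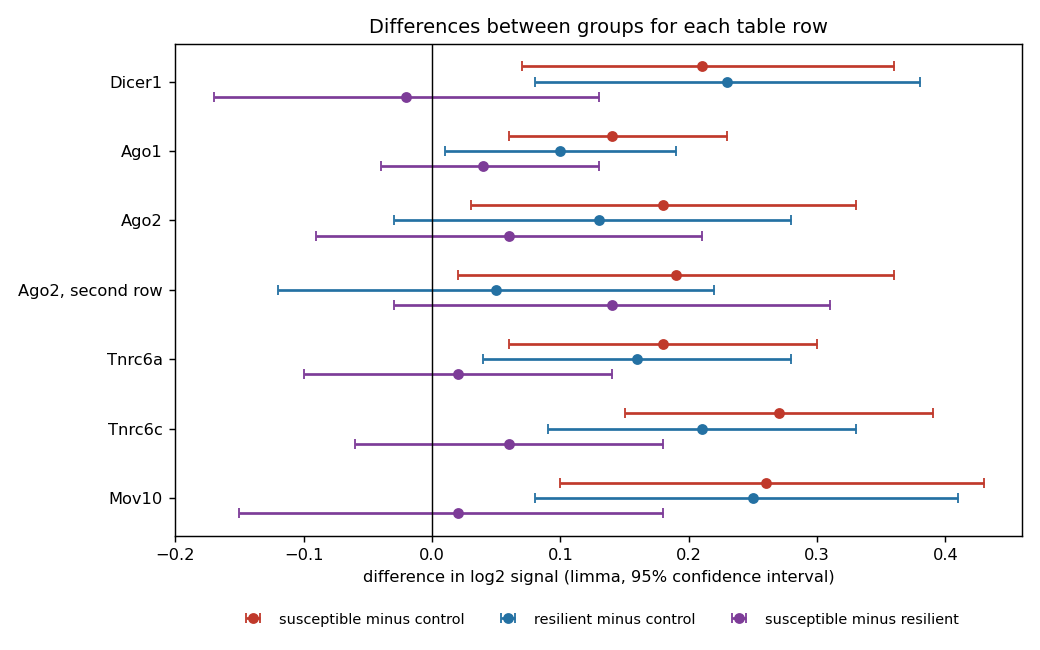
Difference in log2 signal for each of the 7 table rows, with the 95% confidence interval from limma, for either defeated group minus control and for susceptible minus resilient. All 14 differences from controls are above 0, between 0.05 for the second row of Ago2 in resilient mice and 0.27 for Tnrc6c in susceptible mice, while every interval of susceptible minus resilient includes 0.

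The 7 rows did not share one profile over the arrays. Dicer1 and Tnrc6a were the most alike, with a root mean square difference of 0.050 log2 units between their profiles once each was centred on its own mean over the 9 arrays. In both, control 4 was the lowest control and control 1 the highest. In the other 5 rows control 4 was instead the highest control. Of these it lay above the row's own mean only in the second row of Ago2, by 0.06. Its deviation was -0.04 for Ago1, -0.03 for the brighter row of Ago2, -0.08 for Tnrc6c and -0.14 for Mov10. For Dicer1 and Tnrc6a control 4 was 0.27 and 0.19 below the row's own mean. Within the susceptible group, susceptible 2 was the lowest array in 6 of 7 rows, Mov10 being the exception, and within the resilient group resilient 1 was the lowest in 5 of 7. The pair least alike was Dicer1 and the second row of Ago2, at 0.145. The 2 rows of Ago2 differed by 0.074 and were no more alike than Ago1 and the brighter row of Ago2, at 0.067.

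**Figure D3:**
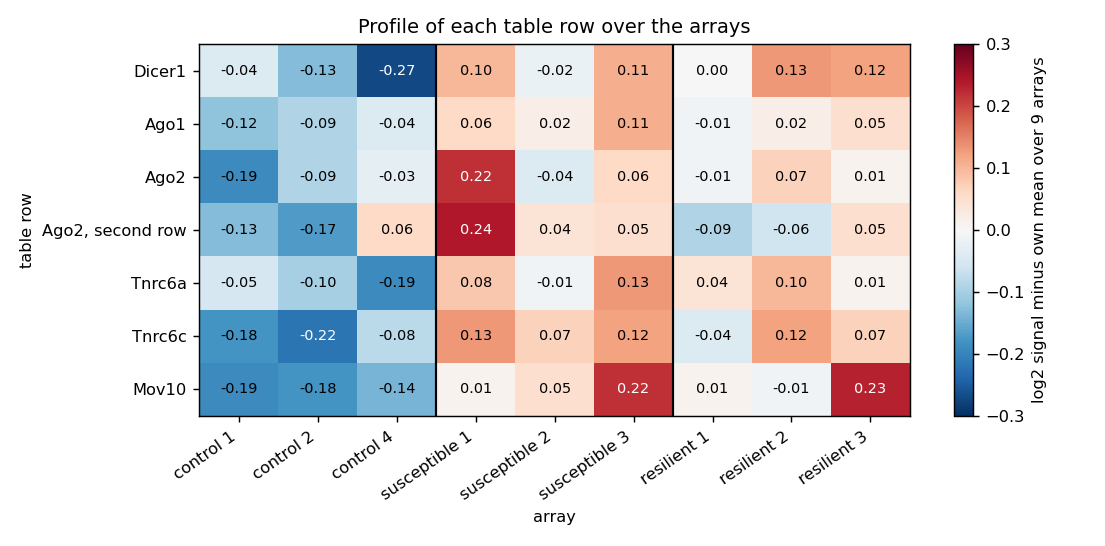
Log2 signal of each of the 7 table rows minus its own mean over the 9 arrays (colour scale from -0.3 to 0.3, values printed in the cells), with arrays in columns and vertical lines between control, susceptible and resilient arrays. Control 4 is the lowest cell for Dicer1 (-0.27) and Tnrc6a (-0.19), and susceptible 1 is the highest for both rows of Ago2 (0.22 and 0.24).

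For each member the 3 other genes with the most similar centred profile were listed by the same measure over the 9 arrays, as a description. Dicer1 was followed most closely by the ubiquitin ligase gene Mycbp2 (0.029), the DNA polymerase gene Rev1 (0.033) and 4932438A13Rik (0.039). Dicer1's own root mean square deviation was 0.127. The nearest genes were picked from the whole table over 9 arrays, so low values come from the choice itself. The genes nearest to Tnrc6c (own deviation 0.128) were the growth factor receptor gene Igf1r (0.029), the guanine nucleotide exchange factor gene Trio (0.032) and Kansl3 (0.032), which encodes a subunit of a histone acetyltransferase complex. For Tnrc6a (own deviation 0.097) they were the centrosomal protein gene Cep350 (0.026), C1qtnf12 (0.029) and the kinase gene Mapk6 (0.031). Ago1, with the smallest own deviation (0.068), had the ubiquitin ligase gene Nedd4 (0.019), N4bp1 (0.021), whose product binds Nedd4, and the cation channel gene Trpm2 (0.021). Those of Mov10 (own deviation 0.145) included the cell adhesion gene Vcl (0.037) and the nuclear pore gene Nup160 (0.042). The brighter row of Ago2 (own deviation 0.107) had Cep85l (0.023), the olfactory receptor gene Olfr1508 (0.035) and the microRNA gene Mir103-2 (0.038). Olfr1508 and Mir103-2 were dim, with control means of 4.81 and 4.84 against a median row mean of 7.14 over the table.

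The wider microRNA pathway was described with 7 lists of 93 genes, of which 50 genes with 63 rows were in the table. Beside the members there were 44 genes with 56 rows, of which 39 were higher and 17 lower in defeated mice than in controls. Their median was 0.07 against 0.03 over the table, where 57.7% of rows were higher. At an unadjusted p under 0.05 there were 15 higher and 3 lower, together close to the share over all rows (33.9%). Against controls, limma called 0 of the 63 rows in defeated mice (0.637% of all rows) and 0 in resilient mice (0% of all rows). In susceptible mice it called 1 of the 63, a row of Gigyf1, beside 0.841% of all rows. Genes of the lists not among these 50 were not analysed here.

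Scaffolds and cofactors of the silencing complex had the highest median of the 6 lists with more than 1 row. Of 15 rows in that list, 12 were higher in defeated mice, with a median of 0.14 (0.09 with either scaling, arrays shifted to one median or quantile normalised), and 10 of them had an unadjusted p under 0.05 (33.9% of all rows, in either direction). Without the 3 rows of Tnrc6a, Tnrc6c and Mov10, 9 of 12 rows were higher (57.7% of all rows) and the median was 0.11. Gigyf1, whose product takes part in repression of translation at the cap, had control, susceptible and resilient means of 7.61 ± 0.02, 7.84 ± 0.07 and 7.76 ± 0.03 (SD, n = 3 each). It rose by 0.22 in susceptible mice (SE 0.042, limma adjusted p = 0.0487), a call kept under 5 of 18 alternatives, with adjusted p between 0.0126 and 0.17. Among single arrays left out, the call was kept only without susceptible 1 or resilient 1. Its difference between all defeated mice and controls was 0.19 (limma adjusted p = 0.0537). Tnrc6b, the third GW182 gene and singled out after its values were seen, had means of 11.08 ± 0.04, 11.20 ± 0.05 and 11.18 ± 0.04 in the same order (SD, n = 3 each). Its difference was 0.11 (SE 0.036, limma adjusted p = 0.107), so all 3 GW182 genes had all defeated arrays above all controls, as did 10.2% of all rows. Mov10l1, the germline relative of Mov10 and also singled out afterwards, had a difference of -0.08 at a control signal of 4.67.

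In the list of Argonautes and the chaperones that help load them, the direction differed between genes. Ago3, singled out after its values were seen, had a difference of 0.07 (SE 0.039, limma adjusted p = 0.185), which makes 4 of 4 rows of Ago1, Ago2 and Ago3 higher. The other 9 rows of that list, from Hsp90aa1, Hsp90ab1, Hspa8, Piwil1 and Piwil4, were all lower in defeated mice, by 0.02 to 0.09. Piwil1 and Piwil4 belong to the Argonaute family and had low control signals of 4.92 and 5.01. The chaperone gene Hsp90aa1 had 3 rows with differences of -0.09 (SE 0.033, limma adjusted p = 0.125), -0.05 and -0.04. Hsp90 and Hspa8 genes have close copies in the genome, which a probe set may not separate. With quantile normalisation the split of the 13 rows was 6 higher and 7 lower.

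The other steps of the pathway had medians of 0.07 or 0.08. Their counts of higher rows stand beside 57.7% of all rows higher in defeated mice. In nuclear processing and export 7 of 8 rows were higher, with a median of 0.07; the editing enzyme gene Adarb1 had a difference of 0.11 (SE 0.037), the helicase gene Ddx17, whose product works with the Drosha complex, 0.14 (SE 0.047), and Ran, the GTPase that drives nuclear export, -0.10 (SE 0.043). Among deadenylases 11 of 12 rows were higher, with a median of 0.07. Cnot1, the scaffold of the CCR4-NOT complex, had rows at 0.12 (SE 0.042), 0.09 and 0.05, Pan3 had 0.09 (SE 0.034), and Cnot2, another CCR4-NOT subunit, had -0.08 (SE 0.035) in one row and 0.00 in the other. In decapping and decay 5 of 7 rows were higher, with a median of 0.08, the decapping enzyme gene Dcp2 at 0.12 (SE 0.046), the helicase gene Upf1 at 0.13 (SE 0.053) and the decapping scaffold gene Edc4 at 0.11 (SE 0.052). In tailing and turnover 6 of 7 were higher, with a median of 0.08, the exonuclease gene Eri1 at 0.11 (SE 0.047) and the uridylyltransferase gene Tut7 at 0.10 (SE 0.052). The rows of Lin28a, which encodes a binder of let-7 precursors, were at 0.07 and -0.09, with low control signals of 4.68 and 5.16. The largest difference of that list, 0.15, was also in a dim row, with a control signal of 5.72. The limma adjusted p-values of the rows named in this paragraph with an SE lay between 0.107 and 0.175. With arrays shifted to one median or quantile normalised, 9 and 10 of the 12 deadenylase rows were higher and the lists in this paragraph had medians of 0.03 to 0.05. Of Dicer and its partners only Dicer1 was among the genes analysed.

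**Figure D4:**
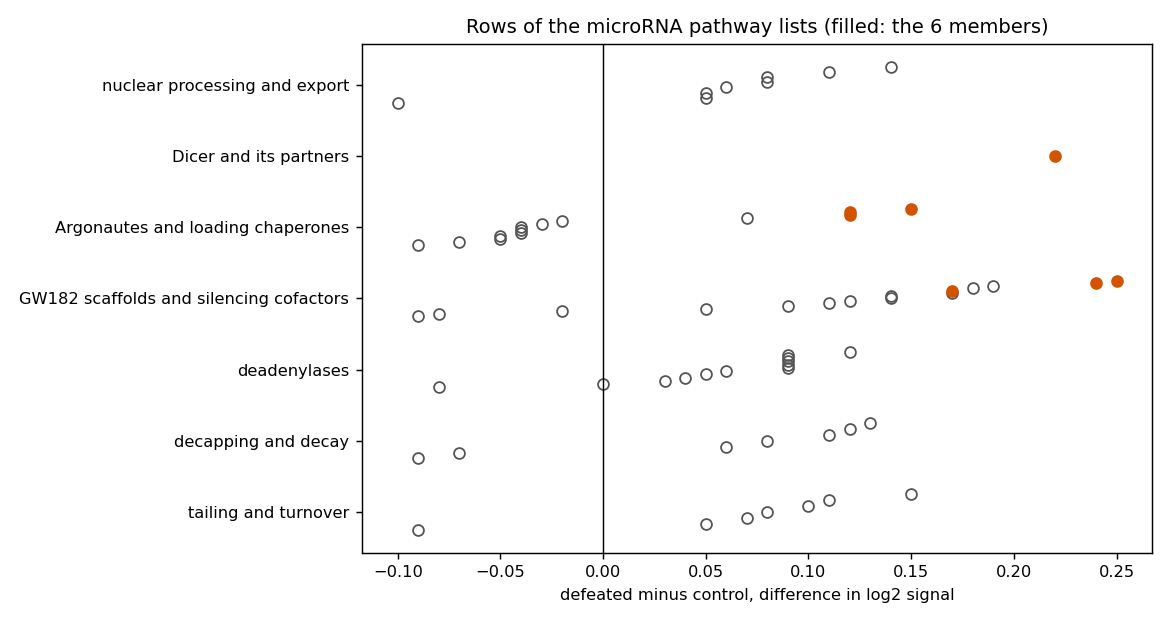
Difference in log2 signal between defeated and control mice for the 63 table rows of the 7 pathway lists (horizontal axis), 1 row per point; filled points are rows of the 6 members and open points other genes. The 3 largest values are those of Mov10 (0.25), Tnrc6c (0.24) and Dicer1 (0.22), and the 9 chaperone and Piwi-family rows lie at -0.09 to -0.02.

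Array medians and cell type markers were described beside the members. Over the rows of this table, which was selected on the outcome, array medians were 7.11 to 7.13 in controls and 7.15 to 7.19 in defeated mice. After each array was shifted to one median, all 7 member rows were still higher in defeated mice, by 0.07 to 0.21, and after quantile normalisation by 0.09 to 0.21. Of the choroid plexus markers, 13 of 14 were in the table and all 13 were higher in defeated mice, with an average signal of 9.32 to 9.83 in controls, 9.82 to 10.27 in susceptible and 9.37 to 9.90 in resilient arrays. Oligodendrocyte markers (3 of 11 genes in the table, 0 higher) averaged 9.27 to 9.41 in controls, 8.87 to 9.02 in susceptible and 8.87 to 9.40 in resilient arrays, and microglia markers (5 of 11, 0 higher) 8.94 to 9.07 in controls and 8.73 to 8.85 in susceptible arrays, with resilient arrays from 8.70 up into the control range. limma called 0 genes of any marker list between defeated mice and controls, and the part of these lists in the members' differences was not tested. Vessel markers (4 of 9, 1 higher) averaged 8.80 to 8.97 in controls, 8.74 to 8.86 in susceptible and 8.72 to 8.82 in resilient arrays. Astrocyte markers (2 of 7, 0 higher) averaged 11.98 to 12.01 in controls and 11.98 to 12.02 in resilient arrays, with susceptible arrays from 11.86 up into the control range. Of excitatory neuron markers the table held Slc17a6, a glutamate transporter gene, at 9.30 to 9.82 in controls, 9.23 to 9.64 in susceptible and 9.64 to 9.89 in resilient arrays. Of markers of inhibitory and central amygdala neurons it held Dlk1, Drd1 and Drd2 (1 of 3 higher), which averaged 9.86 to 10.03, 9.74 to 10.02 and 9.90 to 10.30. The defining markers outside the table were not analysed here.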

How the data were processed

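RNA recovered by Ago2 immunoprecipitation from mouse amygdala (100 ng per array, per the labels' protocols) was measured on 9 Affymetrix whole-transcript arrays. The deposited values are log2 signals made by the authors with RMA (background correction, quantile normalisation and probe summary), and Partek is also named, per the submitters' processing notes; the sources used here give no versions or builds. Gene symbols were read from the deposited symbol table through the probe set number; its 9 value columns match no sample label and were not used, and were updated through an NCBI gene table (GRCm38.p6; 8393 current, 1014 replaced). The number of arrays limits the precision.

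limma 3.58.1 (R 4.3.3; lmFit, contrasts.fit, eBayes, two-sided, no filter) was fitted to every row and all 9 arrays with a mean per group, since every row of a gene is reported; the prior had 3.21 degrees of freedom. Defeated is the mean of the susceptible and resilient means. The 18 alternatives covered scaling, rows, weights, blocking, selection and each array left out. The script was tested on simulated data. The members and lists were chosen with earlier results of these data known. Named were every row of the members, called genes and the 3 smallest p-values of each list, and the 3 nearest profiles per member, of which 1 is not reported here. Other tools were matplotlib 3.10.9, scipy 1.17.1, numpy 2.4.6, pandas 2.3.3 and Python 3.11.15. Promoters are RefSeq's.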

Additional observations from a re-analysis of the deposited data

How the results depend on the processing

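All 7 member rows kept a higher signal in all defeated mice and in susceptible mice than in controls under each of the 18 alternatives, except that the second row of Ago2 is not tested with 1 row per gene, and Tnrc6c ranged from 0.20 to 0.28 for defeated mice, with limma adjusted p from 0.0221 to 0.196. The number of member rows called, 0 in the report, was 1 with 1 row per gene (Tnrc6c), 5 with array weights (all but both rows of Ago2) and 1 with an intensity trend (Tnrc6c) for defeated mice, and 1, 3 (Tnrc6c, Mov10 and Ago1) and 1 for susceptible mice. With single arrays left out it ranged from 0 to 2 in both comparisons. It was 0 under every alternative for resilient mice against controls and for susceptible against resilient mice. Over the whole table the calls moved far more: 75 rows for defeated and 99 for susceptible mice became 126 and 235 with 1 row per gene, 2053 and 3718 with array weights, 0 and 1 with arrays shifted to one median, 2 and 2 with quantile normalisation and 0 and 0 with the allowance for selection. They ranged from 0 to 1318 and from 0 to 1984 with single arrays left out, the highest without susceptible 1, and susceptible mice had 2 with only the groups of the comparison fitted.

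Only differences near 0 changed sign. Susceptible minus resilient became -0.04 for Ago2 and -0.05 for Tnrc6a with array weights, and 0.00 for Mov10 with either scaling. With single arrays left out it ranged from -0.06 to 0.02 for Dicer1, from -0.01 to 0.12 for the brighter row of Ago2, from -0.01 to 0.06 for Tnrc6a and from -0.05 to 0.09 for Mov10, while resilient minus control ranged from 0.00 to 0.12 for the second row of Ago2.

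Deviations of same-numbered arrays from their group means had correlations of -0.10 to 0.22 across rows. Arrays with different numbers had correlations of -0.29 to 0.34. With 3 arrays per group this cannot decide whether the numbers pair the arrays, and the titles do not say. With the replicate block 0 member rows and 0 rows of the table were called, and Tnrc6c had a difference of 0.27 (limma adjusted p = 0.151). Signals over background were not analysed here, so what a dim probe set could show is unknown.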
